A study of Mus musculus with 14 samples.

Results

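The 47 genes described here encode subunits and enzymes of the chromatin machineries that keep genes silent: Polycomb repressive complexes PRC2 and PRC1, the histone deacetylases (HDACs), the NuRD and CoREST corepressors, and the enzymes that write and oxidize DNA methylation. They were taken by gene symbol from the 54332 genes of a SOX9 induction time course, whose levels are given as TPM, a share of all transcripts in a library that is scaled for transcript length, and all 47 were found. TPM were measured by RNA-seq in 10 libraries of epidermal stem cells (EpdSCs) sorted from mouse back skin by high CD49f and Ly6A and by the lack of CD34, CD31, CD45, CD117 and CD140a, with 2 biological replicates at each of 5 timepoints. All 10 libraries came from CD1 mice carrying K14rtTA and TRE-myc-Sox9, in which a *Krt14* promoter drives a doxycycline-dependent activator in the skin epithelium and the activator switches on MYC-tagged SOX9; the D0 group carried the same alleles before induction. The groups were D0 at age P21, W1 at P28, W2 at P35, W6 at P63, and W12, which came from neonatal skin grafted onto female Nude hosts, which lack T cells but keep their other cells, healed, and then induced. Age thus rose with time of induction, and grafting and 12 weeks of SOX9 cannot be told apart at W12. The other 4 of the 14 samples, hair placode cells, were not analysed here.

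As background, PRC2 places methyl groups on lysine 27 of histone H3 and PRC1 ubiquitinates histone H2A, and together they hold developmental genes silent. In the epidermis, PRC2 is known for restraining the *Cdkn2a* locus and the genes of Merkel cells, which are touch receptor cells of the basal layer. HDACs remove acetyl groups from histones, NuRD joins such deacetylases to a nucleosome remodeller, DNMTs methylate cytosine, and TET dioxygenases oxidize that methyl group.

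The label of each library was checked before the comparisons. The MYC-SOX9 transgene was read at 45.6 to 89.6 TPM before induction, and at 3387 to 3414 (W1), 1469 to 1892 (W2), 859 to 1108 at W6 and 606 to 903 at W12. The Pearson r between replicates was 0.958 to 0.988 on log2(TPM + 1). D0 replicate 2, labelled male, held 0.028 TPM of *Ddx3y* and 4.61 TPM of *Xist*, against 32.1 and 0.0010 in D0 replicate 1, so its RNA goes against its label. Both W12 libraries, labelled male, held *Ddx3y* (11.0 and 12.9 TPM) together with *Xist* (5.51 and 3.5 TPM). Results that depend on D0 replicate 2 are therefore also given without it; no such choice exists at W12. The basal epidermal markers sum to between 35410 and 60460 TPM in every library. Markers of the spinous and granular epidermis sum to 2267 and 1160 TPM at D0 and to between 1022 and 2161 in the other libraries. Fibroblast, Merkel and melanocyte markers sum to at most 2.43, 2.00 and 12.2 TPM. At W12 alone, the 3 endothelial markers sum to 28.9 and 66.8 TPM against at most 1.35 elsewhere, the 3 globins to 208.5 and 212 against at most 17.6, and the 6 immune markers to 104 and 126 against at most 28.95, almost all of it *Cd74*, with *Ptprc* at 0.33 TPM or below. The part of these cells in the W12 values was not tested, and in bulk RNA fewer cells of a type and less RNA per cell cannot be told apart. D0 differed in another way: the 18 immediate-early and stress genes fixed as a list summed to 35150 and 57430 TPM at D0 and to between 6901 and 14950 in the other 8 libraries, and its part in the comparisons with D0 was likewise not tested.

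The members were compared between timepoints with limma on log2(TPM + 1), and a gene was called at a Benjamini-Hochberg adjusted P under 0.05 over the 13110 genes whose mean over the libraries reached 1 TPM. Each log2 change below is on this scale, on which changes of weakly expressed genes come out too small. Of the 47 members, 46 passed that filter. The exception was *Phf19*, an accessory subunit of PRC2, which stayed between 0.18 and 0.97 TPM.

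The levels of 32 of the 46 members varied over the time course by the F test, or 69.6%, against 57.5% of all genes tested. Few differed early, as also among all genes, and many were lower late. At W1, 5 members were higher than at D0 (5.79% of all genes were) and 0 were lower (4.1% of all genes), or 2 at an unadjusted P under 0.05. At W2, 4 were higher (9.06% of all genes) and 2 lower (6.64%). At W6, 7 were higher (18.3%) and 6 lower (14.1%), which lies near the shares of all genes. W12 stood apart, with 2 members higher (17.9% of all genes) and 21 lower (25.1%), that is 45.7% of the 46. The heat map of all members shows this as a block of blue at W12 in most rows of PRC1 and NuRD, with *Tet1* as the deepest red row. Of the 46 members, 34 had a change below 0 at W12 and 12 above 0.

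**Figure D1:**
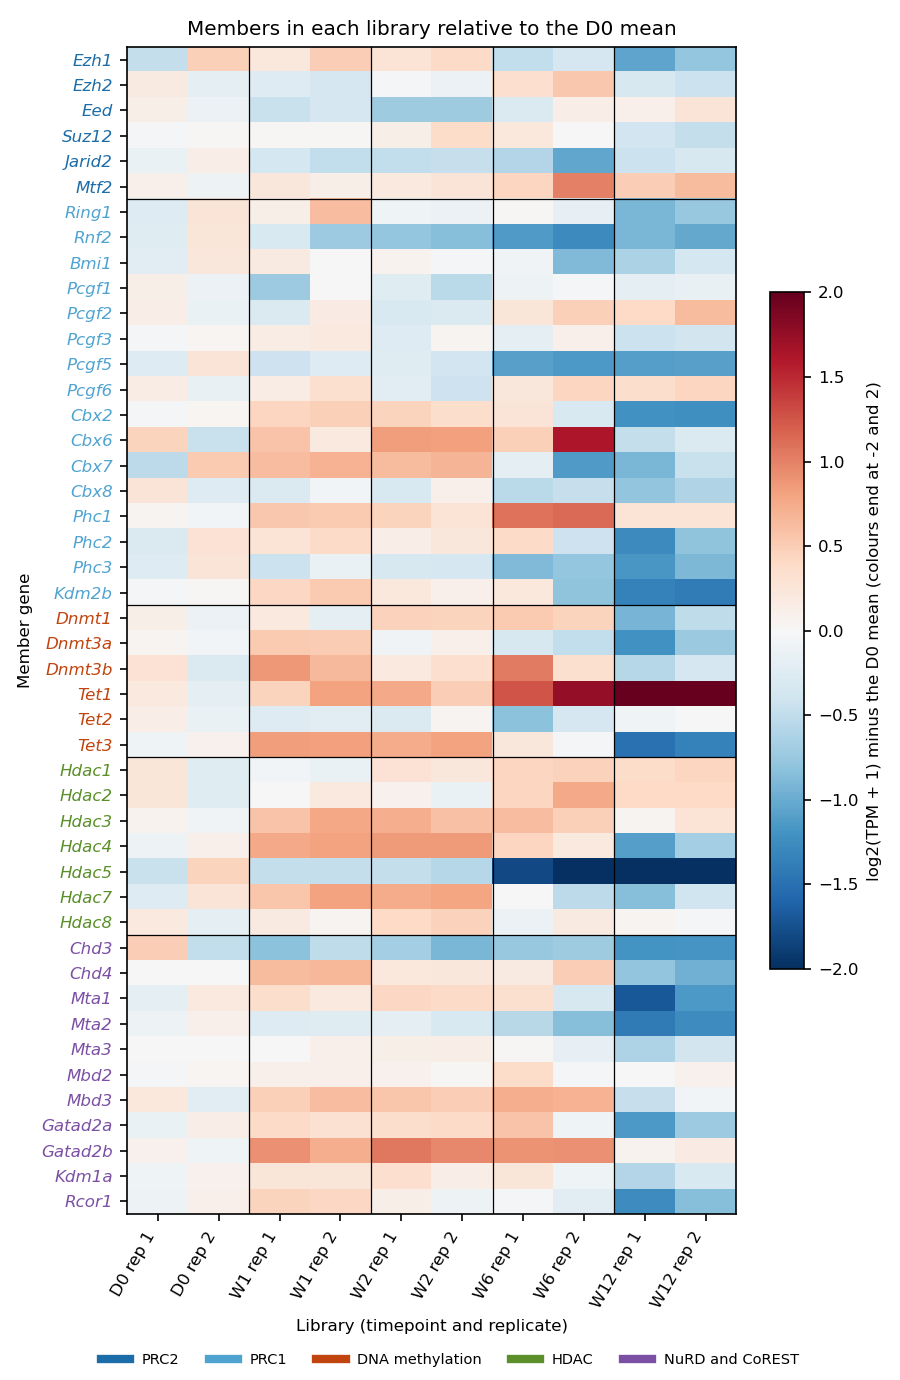
Each row is a member and each column a library; colour gives log2(TPM + 1) minus the mean of the 2 D0 libraries, and label colours mark PRC2, PRC1, DNA methylation, HDAC and NuRD with CoREST. *Tet1* deepens to red and *Hdac5* to blue from W6, and 21 of the 46 rows were called lower at W12 than at D0.

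Between neighbouring stages, W6 against W2 gave 3 members higher (7.99% of all genes) and 4 lower (8.31%), while W12 against W6 gave 0 higher (6.66%), or 2 at an unadjusted P under 0.05, and 18 lower (13.5%). Once trends with transcript length and GC content were removed, W12 against W6 gave 2 higher (8.64%) and 10 lower (5.28%). Fewer members were also called lower there without either W12 library. Against D0, the members had a median log2 change of 0.20 (W1), 0.17 (W2), -0.01 (W6) and -0.49 (W12). All genes tested had medians of 0.09, 0.06, 0.08 and -0.08. From W6 to W12 the members' median was -0.47 and that of all genes -0.16, so changes in that comparison include a shift of that size. Comparisons with D0 share its 2 libraries. Without D0 replicate 2, the counts were 1 higher (*Tet3*) and 1 lower (*Chd3*) at W1, 3 and 2 at W2, 3 and 5 at W6, and 1 and 16 at W12. With limma, 0 members were called at W1 when W1 replicate 1 was left out (9 higher and 1 lower at an unadjusted P under 0.05) or W1 replicate 2 (5 and 1), and 0 at W2 without W2 replicate 1 (4 and 3) or W2 replicate 2 (4 and 2), so the early calls need both libraries. At W12, leaving out W12 replicate 1 left 1 higher and 12 lower. Each call given below as lost without D0 replicate 2 was also lost when at least 1 library of the later timepoint was left out. Scaling by median ratios turned the split at W12 to 6 higher and 20 lower, with *Hdac1*, *Hdac2*, *Pcgf2* and *Pcgf6* added to the higher ones, and that from W2 to W6 to 5 and 4.

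The TET dioxygenases differed from each other: *Tet1* was higher at W6 and W12, *Tet3* was higher at W1 and W2 and lower at W12, and *Tet2* passed no test with the values as deposited. *Tet1* was at 1.49 and 0.88 TPM at D0, 1.94 and 2.78 at W1, 2.67 and 2.03 at W2, 4.18 and 6.36 at W6, and 8.05 and 9.60 at W12. Every library after D0 lay above both D0 libraries, and the W12 libraries were the highest of all. Its mean was 7.45-fold higher at W12 than at D0 (log2 change 2.18 ± 0.27 (SE), adjusted P = 0.00043) and 4.44-fold higher at W6 (1.51 ± 0.27, adjusted P = 0.0039). At W1 and W2 the change of 0.62 did not pass (adjusted P = 0.18 and 0.15). *Tet3* showed 30.4 and 34.4 TPM at D0, 58.5 and 58.0 at W1, 55.0 and 56.9 at W2, 37.8 and 31.7 at W6, and 10.8 and 12.1 at W12. It therefore rose early and ended as the lowest of its own course, with no overlap between D0 and W1, W2 or W12. The rise was 0.83 ± 0.15 at W1 (adjusted P = 0.0097) and 0.77 ± 0.15 at W2 (adjusted P = 0.010), and the fall was -1.42 ± 0.15 at W12 (adjusted P = 0.00019). From W6 to W12 it dropped by 1.52 on the log2 scale (adjusted P = 0.00035). *Tet2* stood at 23.1 and 19.2 TPM at D0, 17.4 and 18.0 at W1, 17.0 and 22.0 at W2, 11.5 and 16.5 at W6, and 20.0 and 21.2 at W12. It passed no test against D0 with the values as deposited, and its W12 libraries lay within the D0 range. With median-ratio scaling, *Tet2* was called lower at W6 than at D0 and higher from W6 to W12.

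Set beside each other, *Tet1* made up 2.71% and 1.62% of the summed TPM of the 3 *Tet* genes at D0 and 20.7% and 22.3% at W12, while the share of *Tet3* went from 55.2% and 63.1% to 27.8% and 28.2%. The sum itself was 55.0 and 54.5 TPM at D0, between 74.7 and 81.0 at W1 and W2, and 38.8 and 43.0 at W12. These values were computed per library and are descriptions, with no test.

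Because *Tet1* was the member that rose most, the bases before its RefSeq start are shown. The stretch lies in an intron of the longer GENCODE M21 gene model, at chr10:62887325-62887412 of GRCm38 on the minus strand, and ends at the base before the start, and the rest of the 250-base window, which holds an exon, is not shown.
Tet1: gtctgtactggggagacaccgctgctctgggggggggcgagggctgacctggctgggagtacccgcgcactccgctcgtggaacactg
In the 250 bases before the start, *Tet1* had 15 CpG dinucleotides and 1 SP/KLF motif (GGGCGG, searched on both strands), which lies in the part not shown.

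Of the DNA methyltransferases, *Dnmt1* and *Dnmt3a* were lower at W12 than at D0, and both calls were lost with the length and GC correction (-0.06 and -0.40). *Dnmt1*, the maintenance enzyme that copies methylation at replication, was at 37.6 and 31.6 TPM at D0, 39.8 and 30.5 at W1, 47.8 and 47.4 at W2, 49.9 and 47.3 at W6, and 17.5 and 24.01 at W12. The W12 libraries were below all others, and those of W2 and W6 above both D0 libraries. *Dnmt1* fell by 0.72 on the log2 scale from D0 to W12 (SE 0.19, adjusted P = 0.017, lost without D0 replicate 1 or W12 replicate 1) and dropped by 1.20 from W6 to W12 (adjusted P = 0.0047), while its difference of 0.48 at W6 did not pass (adjusted P = 0.088). *Dnmt3a*, a de novo enzyme, measured 50.6 and 46.9 TPM at D0, 70.7 and 70.0 at W1, 46.1 and 52.6 at W2, 38.9 and 34.4 at W6, and 20.4 and 28.6 at W12. Its W1 libraries were the highest and its W12 libraries the lowest, and the change at W12 was -0.98 ± 0.18 (adjusted P = 0.0029). The difference of 0.52 at W1 did not pass (adjusted P = 0.10). *Dnmt3b*, the other de novo enzyme, was low throughout, at 3.66 and 2.12 TPM at D0, 5.99 and 4.98 at W1, 3.38 and 3.81 at W2, 6.80 and 3.77 at W6, and 1.56 and 2.02 at W12. Its W6 replicates were far apart. It passed no test against D0 and fell by 1.13 on the log2 scale between W6 and W12 (SE 0.29, adjusted P = 0.029), a call that was lost without W6 replicate 1 or either W12 library, with median-ratio scaling, and once trends with transcript length and GC content were removed (adjusted P = 0.13).

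**Figure D2:**
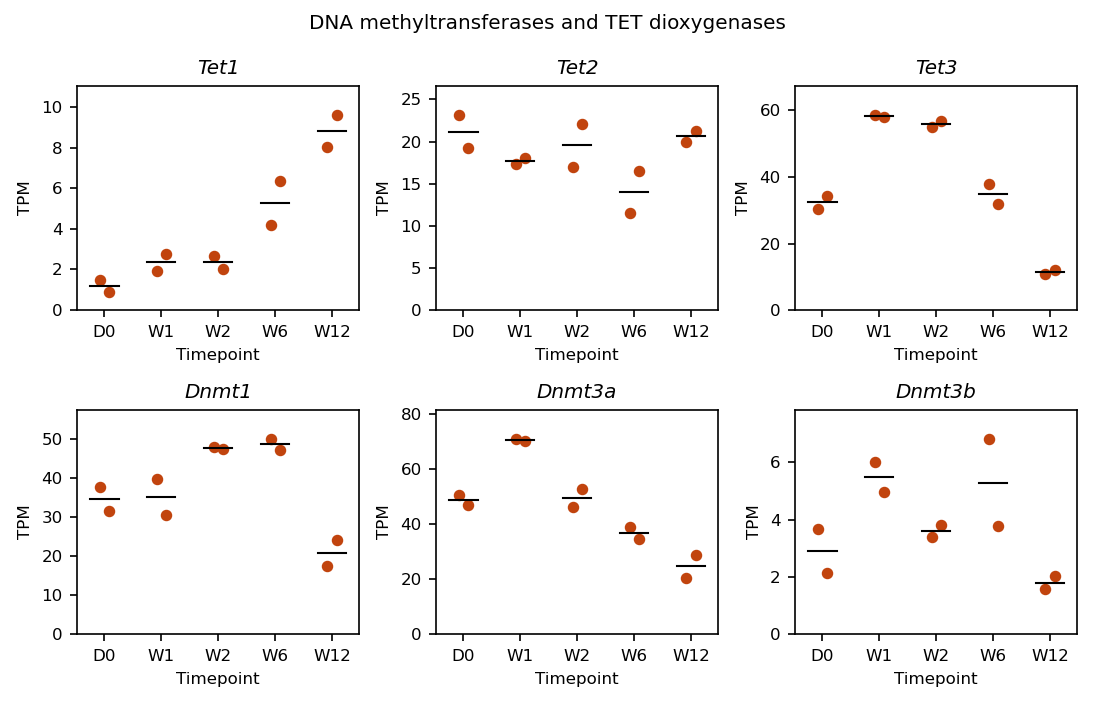
TPM (linear axis from 0) of the TET dioxygenases and DNA methyltransferases by timepoint; each point is a library and each line the mean of 2. *Tet1* climbs to 8.05 and 9.60 TPM at W12 while *Tet3*, *Dnmt1* and *Dnmt3a* end below every earlier library.

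Among the HDACs the class IIa enzymes, which shuttle between cytoplasm and nucleus, moved most. *Hdac5* was at 43.7 and 81.4 TPM at D0, 42.8 and 42.4 at W1, 42.5 and 39.7 at W2, 16.3 and 9.45 at W6, and 7.79 and 7.19 at W12. D0 replicate 2 was the highest, the libraries of W1 and W2 lay just under D0 replicate 1, and those of W6 and W12 did not overlap with any earlier one. The mean at D0 was 8.35 times that at W12 (log2 change -2.84 ± 0.30, adjusted P = 0.00022) and 4.85 times that at W6 (-2.17 ± 0.30, adjusted P = 0.0014). Without D0 replicate 2 the values were -2.40 at W12 and -1.73 at W6, both still called. Most of the change fell between W2 and W6, where *Hdac5* dropped by 1.65 on the log2 scale (adjusted P = 0.013). With 1 library left out, that change was -2.01 to -1.28. The call from W2 to W6 was lost without either W2 library or W6 replicate 2, and when all genes above 0 were tested.

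*Hdac5* fell furthest of all members, so the 250 bases before its RefSeq start are shown, at chr11:102230173-102230422 of GRCm38 on the minus strand, upstream of the gene and clear of any GENCODE M21 exon. Capitals mark the SP/KLF motif (GGGCGG, here on the other strand), whose first base lies 94 bases before the start.
Hdac5: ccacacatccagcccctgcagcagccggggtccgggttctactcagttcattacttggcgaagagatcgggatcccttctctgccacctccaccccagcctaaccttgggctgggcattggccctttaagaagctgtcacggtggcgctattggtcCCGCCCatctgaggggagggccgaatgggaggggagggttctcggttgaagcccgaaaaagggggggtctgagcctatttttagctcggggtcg
This window had 12 CpG, and like that of *Tet1* it held no SOX motif (ACAATG or ACAAAG), RUNX motif (TGTGGT), E2F motif (TTTNNCGC) or AP-1 motif (TGANTCA) on either strand. RefSeq windows of 40 of the 47 members were searched beside those of 27025 genes: a SOX motif was in 12.5% of the members' windows and 25.5% of all, RUNX in 17.5% and 14.2%, E2F in 5.0% and 4.39%, AP-1 in 2.5% and 6.87%, and SP/KLF in 77.5% and 32.9%. The members' windows had a median of 20.5 CpG against 6.0 over all genes.

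The other class IIa enzymes followed another course. *Hdac4* ranged from 14.5 to 16.8 TPM at D0 and from 27.0 to 29.1 at W1 and W2, and was at 6.72 and 9.34 at W12, with no overlap between D0 and those timepoints. It rose at W1 (0.78, adjusted P = 0.032, lost when any 1 of the 4 libraries compared was left out and with median-ratio scaling or the length and GC correction) and W2 (0.85, adjusted P = 0.016). *Hdac4* was lower at W12 (-0.90, adjusted P = 0.0052), or -0.29 and not called with the correction. *Hdac7* ranged from 3.73 to 13.9 TPM and, among the pairwise comparisons, was called only from W2 to W6 (-1.02, adjusted P = 0.037). That call was lost without either W2 library or W6 replicate 2. With the length and GC correction *Hdac7* was also called higher at W2 than at D0 (0.64, adjusted P = 0.036). Summed TPM of *Hdac4*, *Hdac5* and *Hdac7* went from 64.4 and 107 at D0 to 18.2 and 22.0 at W12.

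Among the class I enzymes, *Hdac1* and *Hdac2* encode the deacetylases of NuRD and CoREST. *Hdac1* stood at 87.8 and 62.3 TPM at D0, 71.6 and 67.0 at W1, 90.4 and 86.7 at W2, 99.8 and 103 at W6, and 95.8 and 101 at W12. Its W6 and W12 libraries lay above both D0 libraries, but no comparison passed (W12 against D0 0.40, adjusted P = 0.080), other than W12 with median-ratio scaling (0.50, adjusted P = 0.031). A pseudogene, *Hdac1-ps*, is listed at 23.8 to 47.8 TPM, so reads could be divided between the pair. *Hdac2* showed 103 and 74.0 TPM at D0, 87.1 and 101 at W1, 93.1 and 79.9 at W2, 119 and 149 at W6, and 116 and 115 at W12. It was called at W6 (0.60 ± 0.19, adjusted P = 0.043), a call lost without D0 replicate 2, and with median-ratio scaling also at W12 (0.49, adjusted P = 0.042). *Hdac3*, the deacetylase of NCoR complexes, was at 58.7 and 52.9 TPM at D0, 83.1 and 96.2 at W1, 92.9 and 84.3 at W2, 85.8 and 77.8 at W6, and 57.8 and 67.4 at W12. It was above both D0 libraries from W1 to W6 and overlapped them at W12. The rise was 0.67 ± 0.15 at W1 (adjusted P = 0.023), 0.66 at W2 (adjusted P = 0.019) and 0.54 at W6 (adjusted P = 0.023), all lost without D0 replicate 2. *Hdac8* ranged from 4.76 to 7.99 TPM and passed no test with the values as deposited. With the length and GC correction it was called lower from W2 to W6 (-0.65, adjusted P = 0.029).

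**Figure D3:**
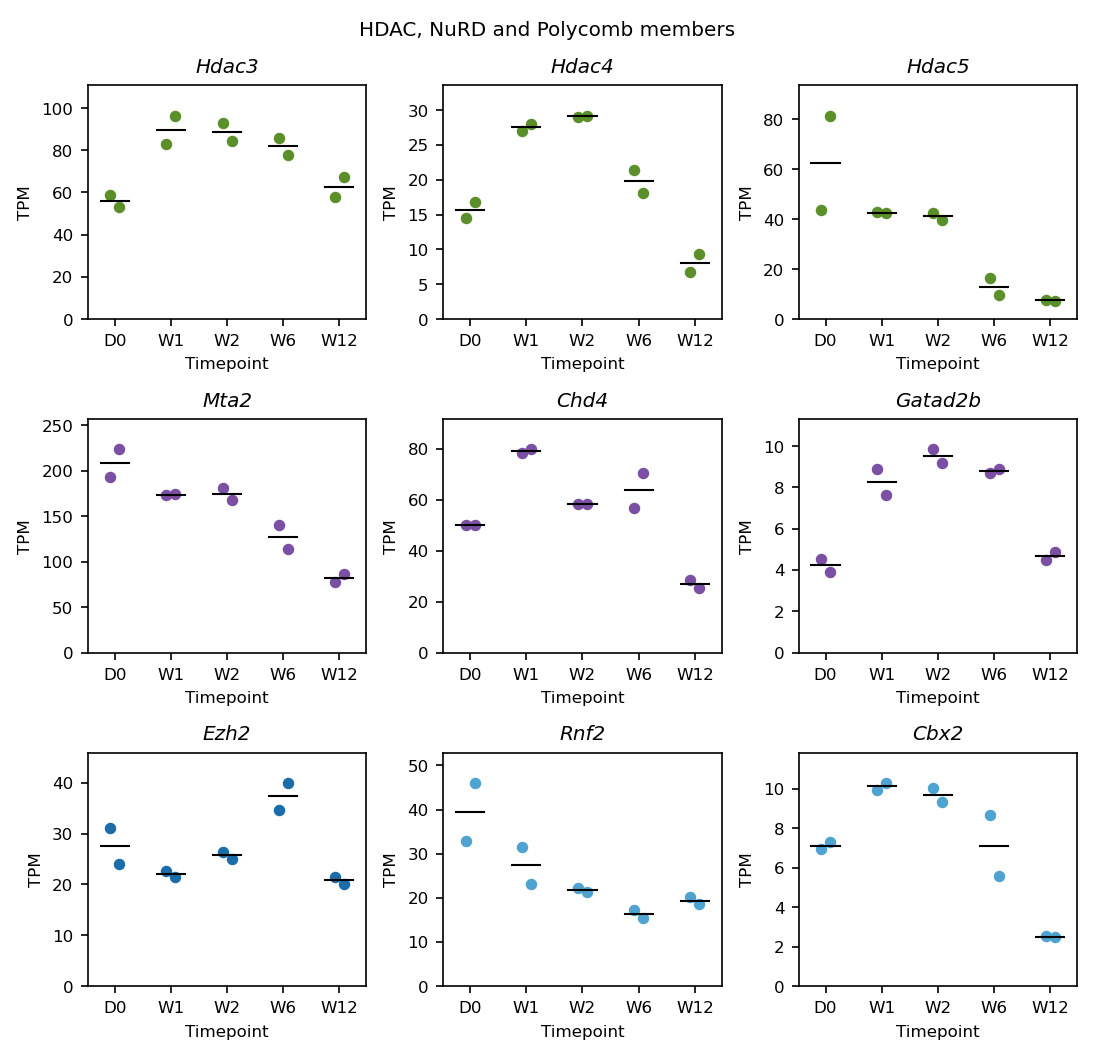
TPM (linear axes from 0) of 9 HDAC, NuRD and Polycomb members by timepoint; points are libraries and lines the mean of 2. *Hdac5* and *Mta2* are lower from W6, and *Hdac3* and *Gatad2b* are higher from W1 to W6 and not at W12. *Hdac4* is higher at W1 and W2 and lower at W12, where *Chd4* and *Cbx2* are lowest.

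Of the 9 NuRD genes and the 2 of CoREST, 7 were lower at W12 than at D0 (25.1% of all genes were) and 0 higher (17.9%). With the length and GC correction, 3 of the 11 were lower, or 27.3%, beside 17.5% of all genes. *Chd4*, the main remodelling ATPase, measured 50.1 and 50.0 TPM at D0, 78.4 and 79.8 at W1, 58.3 and 58.5 at W2, 57.0 and 70.5 at W6, and 28.5 and 25.3 at W12. Every library from W1 to W6 was above D0 and both of W12 were below. *Chd4* rose at W1 (0.65 ± 0.14, adjusted P = 0.024, lost without D0 replicate 2 and with the length and GC correction). It was lower at W12 (-0.87 ± 0.14, adjusted P = 0.0019), or -0.25 and not called with that correction. From W6 to W12 *Chd4* dropped by 1.21 on the log2 scale (adjusted P = 0.0011), and the change with the correction was -0.79, still called. *Chd3*, its paralogue, was at 18.3 and 8.79 TPM at D0, 6.81 and 8.67 at W1, 7.55 and 6.30 at W2, 7.09 and 7.399 at W6, and 5.04 and 5.10 at W12. D0 replicate 1 stood apart, and the value at W12 was -1.18 ± 0.30 (adjusted P = 0.013), which became -0.69 (adjusted P = 0.038) without D0 replicate 1 and -1.67 (adjusted P = 0.0021) without D0 replicate 2, and was not called without either W12 library (highest adjusted P = 0.068) or with the length and GC correction.

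The transcripts of the 3 MTA proteins, which tether the deacetylases to the complex, were lower at W12. *Mta2*, the most abundant, was at 193 and 223 TPM at D0, 173 and 174 at W1, 181 and 168 at W2, 140.1 and 114 at W6, and 77.4 and 86.0 at W12. No later library reached the D0 range. It was lower at W6 (-0.71 ± 0.15, adjusted P = 0.0082) and W12 (-1.33 ± 0.15, adjusted P = 0.00027). *Mta1* stood at 14.4 and 19.1 TPM at D0, 21.4 and 19.1 at W1, 22.3 and 22.0 at W2, 21.01 and 13.1 at W6, and 4.43 and 6.90 at W12. Only its W12 libraries fell outside the range of the others, by -1.43 ± 0.26 against D0 (adjusted P = 0.0032). *Mta3* ranged from 34.7 to 58.9 TPM and was lower at W12 by a smaller amount (-0.50, adjusted P = 0.022), a call lost without D0 replicate 2.

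The bridging subunits differed from each other. *Gatad2b* was at 4.56 and 3.92 TPM at D0, 8.90 and 7.65 at W1, 9.84 and 9.16 at W2, 8.71 and 8.87 at W6, and 4.47 and 4.87 at W12. It was above D0 in all 6 libraries from W1 to W6 and near the D0 values at W12. The rise was 0.82 ± 0.17 at W1 (adjusted P = 0.020, lost without D0 replicate 2), 1.00 at W2 (adjusted P = 0.0064) and 0.90 at W6 (adjusted P = 0.0059). *Gatad2a*, more abundant at 29.4 to 99.0 TPM, was called only as lower at W12 (-0.94 against D0, adjusted P = 0.011, lost without D0 replicate 2). *Mbd3*, the methyl-CpG-binding-domain subunit that does not need methylated DNA, showed 170.0 and 128 TPM at D0, 205 and 227 at W1, 216 and 207 at W2, 244 and 239 at W6, and 107 and 142 at W12. The libraries from W1 to W6 were above both of D0, and those of W12 overlapped with them. It was called higher at W6 (0.71 ± 0.18, adjusted P = 0.019), which was lost without D0 replicate 2, and lower from W6 to W12 (-0.96, adjusted P = 0.0091), which was lost without W12 replicate 1 and with the length and GC correction (-0.51, adjusted P = 0.063). *Mbd2*, which binds methylated DNA, was the steadiest member at 123 to 163 TPM and passed no test.

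CoREST pairs deacetylases with the demethylase LSD1. *Kdm1a*, which encodes LSD1, stood at 46.9 and 52.7 TPM at D0, 59.1 and 59.2 at W1, 62.9 and 54.8 at W2, 58.7 and 46.8 at W6, and 32.7 and 40.0 at W12. Its W12 libraries were below both D0 libraries, but the change of -0.45 ± 0.17 did not pass (adjusted P = 0.059). *Rcor1*, the scaffold, was at 44.9 and 51.3 TPM at D0, 65.7 and 64.5 at W1, 52.2 and 44.5 at W2, 47.2 and 41.5 at W6, and 19.5 and 26.3 at W12. Only the W12 libraries were below all others, with a change of -1.05 ± 0.18 (adjusted P = 0.0021).

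Of the 6 PRC2 members tested, *Ezh1* was lower and *Mtf2* higher at W12 than at D0. *Ezh2*, the main methyltransferase, was at 31.1 and 23.998 TPM at D0, 22.6 and 21.5 at W1, 26.4 and 25.1 at W2, 34.7 and 40.0 at W6, and 21.6 and 20.1 at W12. Its W6 libraries were the highest and did not overlap with D0, and those of W12 lay below D0. No comparison with D0 passed (W6 0.43, adjusted P = 0.075; W12 -0.38, adjusted P = 0.096), but *Ezh2* fell by 0.81 on the log2 scale from W6 to W12 (SE 0.16, adjusted P = 0.012), a call lost without either W12 library. *Ezh1*, the paralogue typical of resting cells, stood at 14.0 and 27.7 TPM at D0, 23.1 and 28.1 at W1, 24.004 and 25.9 at W2, 13.8 and 15.3 at W6, and 8.99 and 11.1 at W12. The D0 replicates were far apart, with D0 replicate 1 at the W6 level and D0 replicate 2 at that of W1. Its change at W12 was -0.91 ± 0.28 (adjusted P = 0.029), or -0.44 and not called without D0 replicate 2.

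*Eed*, which reads the H3K27 mark, measured 54.1 and 45.4 TPM at D0, 36.2 and 38.8 at W1, 30.0 and 30.0 at W2, 40.5 and 54.5 at W6, and 53.4 and 59.2 at W12. It dipped at W2 without overlap with D0 (-0.71 ± 0.17, adjusted P = 0.027, lost without D0 replicate 1) and was higher again at W6 than at W2 (0.63, adjusted P = 0.041). The call from W2 to W6 was lost without either W2 library or W6 replicate 2. *Suz12*, the scaffold, was at 10.4 and 10.8 TPM at D0, 10.8 and 10.8 at W1, 11.5 and 13.9 at W2, 12.5 and 10.6 at W6, and 7.92 and 7.33 at W12. The W12 libraries were the lowest, but no test passed (-0.43 ± 0.17, adjusted P = 0.071). Of the accessory subunits, *Mtf2* ranged from 32.8 to 71.7 TPM and was higher at W6 (0.72, adjusted P = 0.023) and W12 (0.57, adjusted P = 0.044), and *Jarid2* ranged from 8.60 to 20.6 TPM and was lower at W6 (-0.81, adjusted P = 0.014). All 3 of these calls were lost without D0 replicate 2.

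In PRC1, 8 of 16 members were lower at W12 than at D0, or 50.0%, beside 25.1% of all genes, and 0 were higher, beside 17.9%. The split was 7 lower and 2 higher with median-ratio scaling, and 5 lower and 2 higher with the length and GC correction, beside 17.5% and 20.6% of all genes. *Rnf2*, which encodes the main ubiquitin ligase RING1B, was at 32.9 and 46.0 TPM at D0, 31.5 and 23.2 at W1, 22.3 and 21.2 at W2, 17.29 and 15.53 at W6, and 20.2 and 18.6 at W12. All later libraries lay below both D0 libraries. The change was -0.81 ± 0.21 at W2 (adjusted P = 0.031, lost without D0 replicate 2), -1.20 ± 0.21 at W6 (adjusted P = 0.0035) and -0.97 ± 0.21 at W12 (adjusted P = 0.0060). *Ring1*, its paralogue, ranged from 9.06 to 28.02 TPM and was lower at W12 (-0.83, adjusted P = 0.018, lost without D0 replicate 2).

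The PCGF proteins define the variants of PRC1. *Pcgf5* stood at 27.4 and 39.5 TPM at D0, 24.6 and 27.3 at W1, 27.5 and 25.1 at W2, 15.0 and 14.3 at W6, and 14.8 and 15.1 at W12. Its W6 and W12 libraries formed a lower level of their own, at -1.11 ± 0.19 (adjusted P = 0.0031) and -1.09 ± 0.19 (adjusted P = 0.0022) against D0. *Bmi1*, the PCGF protein of canonical PRC1, was at 16.6 and 22.9 TPM at D0, 22.3 and 19.5 at W1, 20.5 and 19.0 at W2, 18.5 and 10.1 at W6, and 12.2 and 15.1 at W12. It passed no test, and neither did *Pcgf1*, *Pcgf2* and *Pcgf3*, which ranged from 9.05 to 17.1, 3.78 to 8.11 and 9.79 to 15.8 TPM. *Pcgf6* ranged from 10.6 to 19.8 TPM and, among the pairwise comparisons, was called only as higher at W6 than at W2 (0.64, adjusted P = 0.042). That call was lost without either W2 library or W6 replicate 2.

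The CBX chromodomain proteins, which read H3K27 methylation, were low. *Cbx2* was at 6.94 and 7.31 TPM at D0, 9.96 and 10.3 at W1, 10.04 and 9.32 at W2, 8.67 and 5.57 at W6, and 2.52 and 2.46 at W12. The W12 libraries were far under all others, at -1.22 ± 0.21 (adjusted P = 0.0024), or -0.55 (adjusted P = 0.037) with the length and GC correction. *Cbx7* measured 1.05 and 3.22 TPM at D0, 3.52 and 3.79 at W1, 3.58 and 3.69 at W2, 1.57 and 0.34 at W6, and 0.56 and 1.17 at W12. Replicates of D0 and W6 were as far apart as timepoints, and no pairwise comparison passed. *Cbx8* ranged from 4.04 to 9.43 TPM and was lower at W12 (-0.70, adjusted P = 0.041, lost without D0 replicate 1 or either W12 library). *Cbx6*, whose exons overlap another gene on the same strand, ranged from 1.92 to 11.4 TPM and was called only from W6 to W12 (-1.43, adjusted P = 0.038). That call was lost without W6 replicate 2, where the value was -0.86, without either W12 library, with median-ratio scaling, and with the length and GC correction (-0.93, adjusted P = 0.22).

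The polyhomeotic proteins link PRC1 into larger assemblies. *Phc2*, the most abundant, stood at 93.3 and 141 TPM at D0, 139 and 150.4 at W1, 126 and 134 at W2, 149 and 85.7 at W6, and 46.999 and 65.6 at W12. It was lowest at W12 (-1.03 ± 0.29, adjusted P = 0.019, lost without D0 replicate 2). *Phc3* was at 3.56 and 5.54 TPM at D0, 3.07 and 3.98 at W1, 3.36 and 3.31 at W2, 1.97 and 2.20 at W6, and 1.45 and 1.93 at W12. Its W6 and W12 libraries were below the earlier ones, at -0.83 ± 0.24 (adjusted P = 0.030) and -1.03 ± 0.24 (adjusted P = 0.0092), and both calls were lost without D0 replicate 2. *Phc1* went the other way, with 0.72 and 0.61 TPM at D0, 1.41 and 1.38 at W1, 1.27 and 1.02 at W2, 2.55 and 2.65 at W6, and 1.01 and 1.01 at W12. It was above D0 in all later libraries and highest at W6 (1.11 ± 0.20, adjusted P = 0.0045). *Kdm2b*, which recruits PRC1 to unmethylated CpG islands, was at 16.4 and 17.1 TPM at D0, 22.7 and 24.4 at W1, 19.4 and 18.1 at W2, 19.6 and 9.10 at W6, and 5.98 and 5.75 at W12. Apart from W6 replicate 2, the libraries before W12 were at 16.4 TPM or more, and the change at W12 was -1.37 ± 0.29 (adjusted P = 0.0057).

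Long transcripts were lower at W12 across the whole table, and the members are long: their longest annotated transcripts had a median of 4210 bases, against 3043 over all genes tested. Across genes, the log2 change at W12 had a Spearman rho with transcript length of -0.301 over the 46 members and of -0.316 over 13099 genes, as a description. Among members under 3000 bases, 2 of 11 were lower at W12, beside 14.8% of all genes of that length. From 3000 to 5000 bases, 7 of 15 members were lower, beside 32.2% of all genes. At 5000 bases or more, 12 of 20 were lower, beside 39.6%. *Tet1* has the longest transcript of all members, at 14369 bases, and was the one that rose most. *Mta1* and *Mta2*, among those that fell most, have 2826 and 3135 bases. These are single genes, and the part of transcript length in their changes was not tested.

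**Figure D4:**
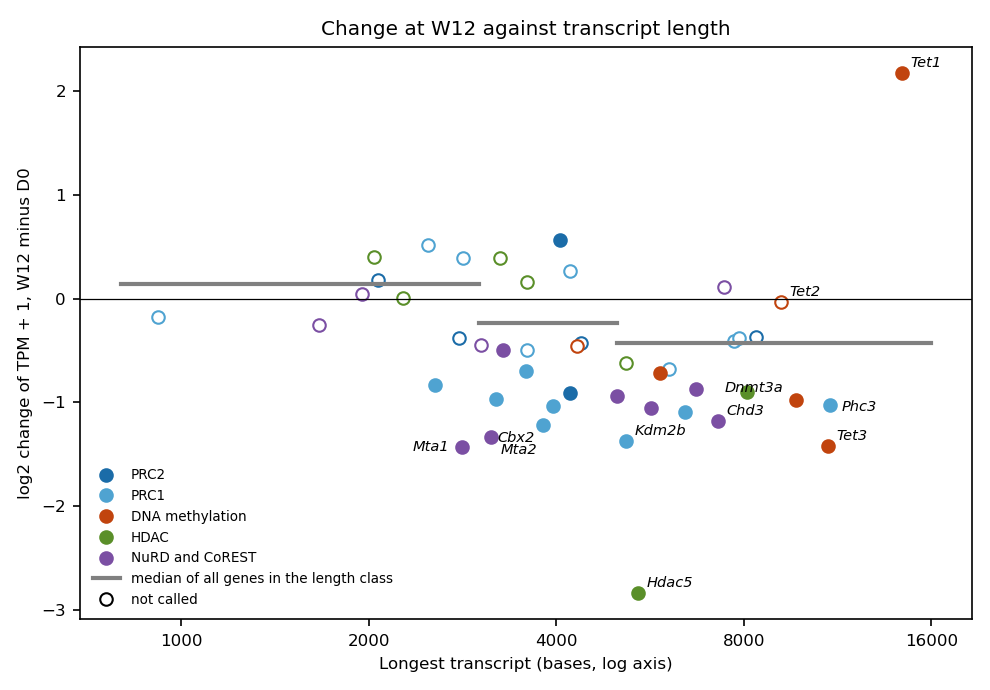
Log2 change from D0 to W12 (vertical axis) against the longest transcript of each of the 46 members (horizontal, log axis, in bases); filled points were called, open points were not, and grey bars are the medians of all genes in 3 length classes. Members at 5000 bases or more have a median of -0.89 beside -0.42 for all genes, and *Tet1* lies alone at the upper right.

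After the trend with transcript length and GC content was removed from each library, 11 members were lower at W12 (23.9% of the 46, against 17.5% of all genes) and 4 higher (20.6% of all genes). Of the 21 lower before, 10 were still called: *Rnf2*, *Pcgf5*, *Cbx2*, *Phc3*, *Kdm2b*, *Tet3*, *Hdac5*, *Mta1*, *Mta2* and *Rcor1*. The other 11 were not: *Ezh1*, *Ring1*, *Cbx8*, *Phc2*, *Dnmt1*, *Dnmt3a*, *Hdac4*, *Chd3*, *Chd4*, *Mta3* and *Gatad2a*. *Ezh2* became called as lower (-0.54, adjusted P = 0.011), and *Pcgf2* (0.80, adjusted P = 0.014) and *Phc1* (0.77, adjusted P = 0.017) as higher. *Tet1* was at 2.37 (adjusted P = 0.00017), *Hdac5* at -1.97 (adjusted P = 0.00034), *Mta2* at -0.99 and *Tet3* at -0.75 (adjusted P = 0.0031). *Mta1* was at -0.93, *Kdm2b* at -0.82 (adjusted P = 0.043) and *Rcor1* at -0.71. The correction left a rho with length of -0.0363 over the members and of -0.11 over all genes at W12, so it did not remove the trend in full. *Dnmt1* went to -0.06 (adjusted P = 0.83), though its fall from W6 to W12 was still called (-0.76, adjusted P = 0.039), and *Chd4* to -0.25 (adjusted P = 0.24). At W6, the correction gave 10 members higher (17.7% of all genes) and 6 lower (16.5%), with *Dnmt1* (0.70), *Chd4* (0.54) and *Hdac4* (0.50) added to the higher ones. From W6 to W12 it gave 2 higher (8.64% of all genes), *Jarid2* (0.72) and *Tet2* (0.70), and 10 lower (5.28%).

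**Figure D5:**
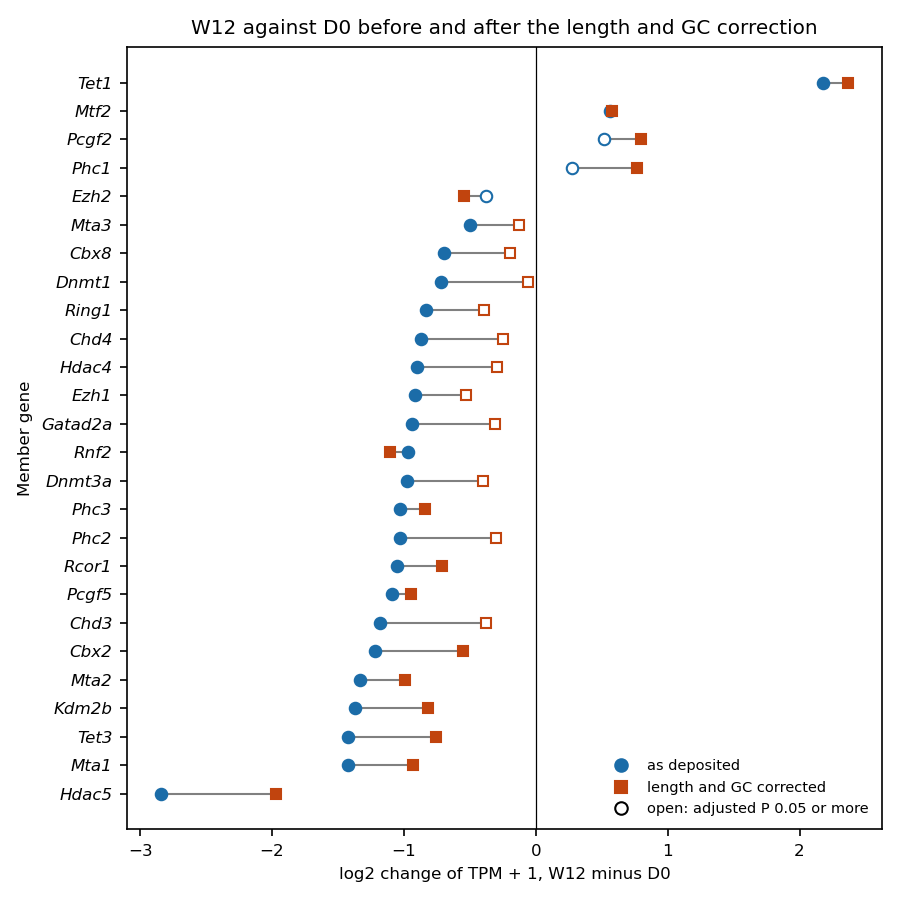
Log2 change from D0 to W12 of the 26 members called in either fit, as deposited (circles) and after the length and GC correction (squares); open symbols had an adjusted P of 0.05 or more. *Hdac5* goes from -2.84 to -1.97 and stays called, while *Dnmt1* goes from -0.72 to -0.06 and does not.

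Other genes of the same complexes were read from a list of 46, of which 43 were tested. At W12, 8 were higher and 20 lower than at D0, at W6 9 and 10, at W2 2 and 1, and at W1 3 and 1. All genes had 17.9% higher and 25.1% lower at W12, 18.3% and 14.1% at W6, 9.06% and 6.64% at W2, and 5.79% and 4.1% at W1. Without D0 replicate 2, the list had 3 higher and 13 lower at W12 and 6 and 4 at W6. With the length and GC correction the W12 counts were 7 and 11, beside 20.6% and 17.5% of all genes. *Dnmt3l*, a cofactor of the de novo methyltransferases best known from germ cells, was at 0.73 and 0.22 TPM at D0, 0.04 and 0.06 at W1, 0.34 and 0.74 at W2, 5.08 and 7.65 at W6, and 15.0 and 14.2 at W12. It was thus under 1 TPM until W2 and passed the filter only through W6 and W12, so these values are a description, with no test. *Bcor*, of a PCGF1-containing PRC1, went from 5.99 and 7.55 TPM to 0.96 and 1.76 (-1.73, adjusted P = 0.00078). *Uhrf1*, which guides DNMT1 to replicating DNA, peaked at 81.1 and 66.2 TPM at W6 (1.42 against D0, adjusted P = 0.0052, or 1.00 without D0 replicate 2, adjusted P = 0.018) and fell by 1.50 by W12 (adjusted P = 0.0072); it was chosen after its values were seen.

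Genes known to be held down by these machineries were listed too. Of 9 genes held down by PRC2 in epidermis, 3 passed the filter on mean TPM, *Krt8* and *Krt18* only through their high values at W12, so their values are given as a description with no test. *Krt8* and *Krt18*, keratins of simple epithelia and Merkel cells, were near 0 at D0. *Krt8* went from 0.035 and 0.039 TPM to 46.3 and 145 at W12, and *Krt18* from 0.47 and 0.067 TPM to 32.9 and 105, and in the libraries between them *Krt8* stayed at 5.84 TPM or less and *Krt18* at 3.80 or less. *Cdkn2b*, which was at 4.76 TPM or more in every library, went from 4.76 and 7.86 TPM to 19.0 and 26.7 (1.72 ± 0.40, adjusted P = 0.0091). *Cdkn2a*, below the filter, was listed at 0 from D0 to W2, at 0.06 and 0.03 TPM at W6 and at 1.04 and 1.07 at W12. The Merkel cell regulators *Atoh1*, *Sox2* and *Isl1* stayed at 1.44 TPM or less in every library. None of the 12 germline genes held down by promoter DNA methylation passed the filter, and their summed TPM stayed between 0.80 and 1.94, with *Sycp1* the highest single gene at up to 1.64 TPM.

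A list of 28 cell cycle genes was read because *Dnmt1*, *Uhrf1* and *Ezh2* are known to follow DNA replication. By limma, 19 of the 28 were higher at W6 than at D0 and 9 at W12, beside 18.3% and 17.9% of all genes, with 0 lower at either (0 also at an unadjusted P under 0.05). At W2 the counts were 3 higher and 1 lower (9.06% and 6.64% of all genes), and at W1 0 higher (5.79%; 2 of the list at an unadjusted P under 0.05) and 3 lower (4.1%). From W6 to W12, 6 were lower (13.5% of all genes). These counts depend on D0 replicate 2: without it, 9 were higher at W6 and 2 at W12, while 3 were lower at W2 and 9 at W1. *Rrm2*, *Ccne1*, *Ccne2* and *Tyms* had the largest changes at W12 (1.89, 1.50, 1.42 and 1.32), or 1.11, 0.75, 0.55 and 0.77 without D0 replicate 2, where *Ccne1* and *Ccne2* were not called. The list summed to 1464 and 780.2 TPM at D0, 2169 and 2355 at W6 and 1665 and 1787 at W12, and D0 replicate 2 was the lowest library of all. *Ezh2* and *Dnmt1* were highest at W6, and the part of cell division in their levels was not tested. Of the 18 immediate-early and stress genes, W1 had 13 called lower than at D0, W2 had 12, W6 had 13 and W12 had 14, beside 4.1%, 6.64%, 14.1% and 25.1% of all genes (10, 9, 13 and 13 without D0 replicate 2), led at the last by *Fosb*, *Egr1*, *Nr4a1* and *Zfp36* (-3.98, -3.62, -3.31 and -2.75), and at most 1 was higher in any of these comparisons.

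Exons of 17 of the 47 overlap those of another gene in GENCODE M21. On the same strand these are *Cbx6*, *Kdm2b*, *Hdac5*, *Chd4* and *Rcor1*, the overlap of *Hdac5* and *Chd4* being with a microRNA gene. On the other strand they are *Ezh2*, *Eed*, *Suz12*, *Mtf2*, *Rnf2*, *Pcgf5*, *Cbx7*, *Kdm2b*, *Dnmt3a*, *Tet2*, *Hdac4*, *Hdac7* and *Gatad2b*. Whether the quantification used strand is not given in the sources used here, so reads of such pairs may not be told apart. The partners of *Mtf2*, *Hdac7*, *Kdm2b*, *Rnf2* and *Cbx7* that are themselves expressed are *Tmed5* (46.4 to 125 TPM), *Slc48a1* (38.0 to 74.5), *Rnf34* (15.1 to 24.1), *Trmt1l* (6.17 to 14.0) and *Apobec3* (0.49 to 14.0). *Npcd*, which overlaps *Cbx6*, reached 1.28 TPM, the other partners with a value in the table stayed under 1 TPM, and *Gm26563*, *Gm26625* and *Gm26720* were not analysed here.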

How the data were processed

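RNA-seq had been made from sorted EpdSCs with a SMARTer low-input kit and sequenced on a NovaSeq instrument. As deposited by the authors, each gene's value is in TPM: reads were trimmed with Skewer, quantified with Salmon 1.4.0 against GENCODE M24 transcripts of GRCm38 to which TRE-Sox9 had been added, and summed per gene with Tximport 1.12.3. TPM sum to the same total in each library and keep no depth, so no counting interval can be given, and the number of libraries limits the precision. A second deposited file, on hair placode cells, holds the authors' own differential expression comparison and was not used.

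Members were matched by gene symbol, and the 10 libraries were grouped by their labels, which call the replicates biological. The members and all gene lists were chosen with earlier results of these data known, so no list gets a test of its own. Named genes are all members, and from the other lists those with the largest changes, of which some are not reported here. Log2(TPM + 1) of the 13110 genes with a mean of 1 TPM or more was fitted with limma 3.58.1 in R 4.3.3, as 5 timepoint means over all 10 libraries with a mean-expression trend in the empirical Bayes step. Moderated contrasts and an F test over the 4 contrasts with D0 were adjusted over all genes tested (Benjamini-Hochberg, threshold 0.05). The script was tested on simulated data. With 2 libraries a group, an exact permutation test could not pass the threshold.

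Lengths and GC content came from the longest GENCODE M21 transcript of each gene, and their trends were removed per library with a lowess curve (span 0.3) over 13099 genes. Promoter windows came from RefSeq on GRCm38.p6. The alternatives were a pseudocount of 0.1, all 38965 genes above 0, median-ratio and quantile scaling, the 4 libraries compared alone, a replicate block, the length and GC correction, and leaving out each library, which for the other lists was done for D0 replicate 2 alone and chosen after seeing the data.

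The shared replicate numbers were checked for pairing: same-numbered libraries deviated with correlations from -0.129 to 0.093. No pairing by number was visible, and with 2 libraries a group such correlations cannot exclude it.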

Additional observations from a re-analysis of the deposited data

How the results depend on the processing

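No call of a member turned its direction under any alternative run. With all genes above 0, 2 members were called at W1, 2 at W2, 8 at W6 and 1 from W2 to W6. Fitting only the 4 libraries compared gave 0 at W1 (11 at an unadjusted P under 0.05 by limma), 3 at W2, 1 at W6, 1 from W2 to W6 and 5 from W6 to W12. The length and GC correction gave 15 at W12, and took the correlation with transcript length from -0.301 to -0.0363 over the members, and from -0.316 to -0.11 over all genes. From W6 to W12 it went from -0.164 to -0.102 over the members and from -0.171 to -0.129 over all genes. The members' median at W12 (-0.494) was -0.572 with a pseudocount of 0.1, -0.399 with median-ratio scaling and -0.241 with the length and GC correction. That from W6 to W12 (-0.469) was -0.315, -0.334 and -0.214 with median-ratio scaling, quantile normalization and the length and GC correction, and that at W1 (0.204) was 0.106 with median-ratio scaling. The split of calls shifted to 3 higher and 1 lower at W1 and 5 and 1 at W2 with the correction, and from W6 to W12 to 2 and 14 with quantile normalization and 2 and 10 with the correction. The cause was not tested.

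Leaving out 1 library at a time, which leaves a lone library assumed to vary like the other groups, gave 0 to 5 members at W1, 0 to 9 at W2, 8 to 17 at W6, 13 to 26 at W12, 0 to 15 from W2 to W6, 4 to 19 from W6 to W12, and 21 to 36 for the F test. The lowest count at W12 was without W12 replicate 1, which also left 4 from W6 to W12, against 10 without W12 replicate 2. From W2 to W6, 0 were called without W2 replicate 1, W2 replicate 2 or W6 replicate 2, where 6 higher and 6 lower, 2 and 6, and 5 and 6 had an unadjusted P under 0.05, and 15 without W6 replicate 1. At W12, *Cbx2*, *Hdac5*, *Kdm2b*, *Mta1*, *Mta2*, *Pcgf5*, *Rcor1*, *Rnf2*, *Tet1* and *Tet3* were called under every alternative and without each library, as were *Hdac5* at W6 and *Chd4*, *Dnmt1*, *Hdac4* and *Tet3* from W6 to W12.

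No pairing of the libraries by replicate number was visible. With the replicate block, 3 members were called from W2 to W6 in place of 7, and the other counts were 4 at W1, 5 at W2, 12 at W6, 21 at W12, 15 from W6 to W12 and 27 for the F test. A block with crossed numbers, chosen after seeing the data, gave 5 at W1, 14 at W6 and 19 from W6 to W12. TPM without depth do not show how far counting error limits members near 1 TPM, such as *Phc1*, *Cbx7* and *Tet1* at D0.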

Other observations

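The timepoint with the lowest mean TPM was W12 for 30 of the 46 members tested, beside 37.0% of all genes tested, and W1 for 1 member, beside 12.6%. The highest mean was at W1 for 15 members (21.4% of all genes) and at W12 for 4 (20.1%). These are descriptions of mean levels, with no test.

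*Ezh2* made up 69.0% and 46.4% of the summed TPM of *Ezh1* and *Ezh2* at D0, between 43.4% and 52.4% at W1 and W2, 71.6% and 72.3% at W6, and 70.6% and 64.4% at W12. D0 replicate 2 lay among the W1 and W2 libraries and D0 replicate 1 among those of W6 and W12. *Hdac5* made up 67.9% and 75.8% of the class IIa sum of *Hdac4*, *Hdac5* and *Hdac7* at D0, 48.1% to 52.6% at W1 and W2, and 29.1% to 42.7% at W6 and W12. The summed TPM of *Mta1*, *Mta2* and *Mta3* was 261 and 296 at D0, 216 and 175 at W6, and 116 and 134 at W12.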
